A study of Homo sapiens with 8 samples.

Results

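The genes described here are 10 components of the signalling route that lies behind endothelin receptors: the G protein alpha subunits GNAQ, GNA11, GNA12 and GNA13, the phospholipases PLCB1 and PLCB3, the calcium release channels ITPR2 and ITPR3, the kinase PRKCA and the calcium-induced gene RCAN1. They were chosen by symbol, and all 10 were found among the 24462 genes of the count table. RNA was sequenced from HepG2, a human cell line from a hepatocellular carcinoma. The tested cells carried EDN1 overexpression (4 libraries, called EDN1 1 to EDN1 4) and the others were labelled mock (4 libraries, called mock 1 to mock 4). Both groups were grown in the same medium, and no treatment was applied to either. The labels do not name the vector, say whether a group was 1 clone or a pool, or give separate cultures for its libraries, so the p-values cover the spread among these libraries, which may be technical.

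The product of EDN1 is cut to the secreted peptide endothelin-1, which acts on receptors encoded by EDNRA and EDNRB. These receptors switch on G proteins of the Gq family, whose alpha subunits activate phospholipase C beta. That enzyme splits a membrane lipid into IP3, which opens calcium channels of the endoplasmic reticulum, and diacylglycerol, which activates protein kinase C. Sustained calcium activates the phosphatase calcineurin, which sends NFAT transcription factors to the nucleus, and RCAN1 is a well known NFAT target that in turn inhibits calcineurin. GNA12 and GNA13 encode alpha subunits of a related family.

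The ligand gene was high in the cells labelled for it, its receptor genes were at or near 0, and each of the 10 signalling genes was detected in every library. EDN1 had 2803, 2284, 4764 and 4752 counts in EDN1 1 to EDN1 4, against 29, 9, 9 and 20 counts in mock 1 to mock 4. EDNRA had 0, 2, 0 and 0 counts in EDN1 1 to EDN1 4, and 0, 0, 2 and 1 counts in mock 1 to mock 4. EDNRB had 0 counts in all 8 libraries. The limit set by a count of 0, taken as 3 counts, was 0.201 to 0.357 CPM (counts per 1000000) by library, and it covers counting error only. The 10 signalling genes had between 64 and 1905 counts in each library. All 10 passed the filter on low counts.

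**Figure D1:**
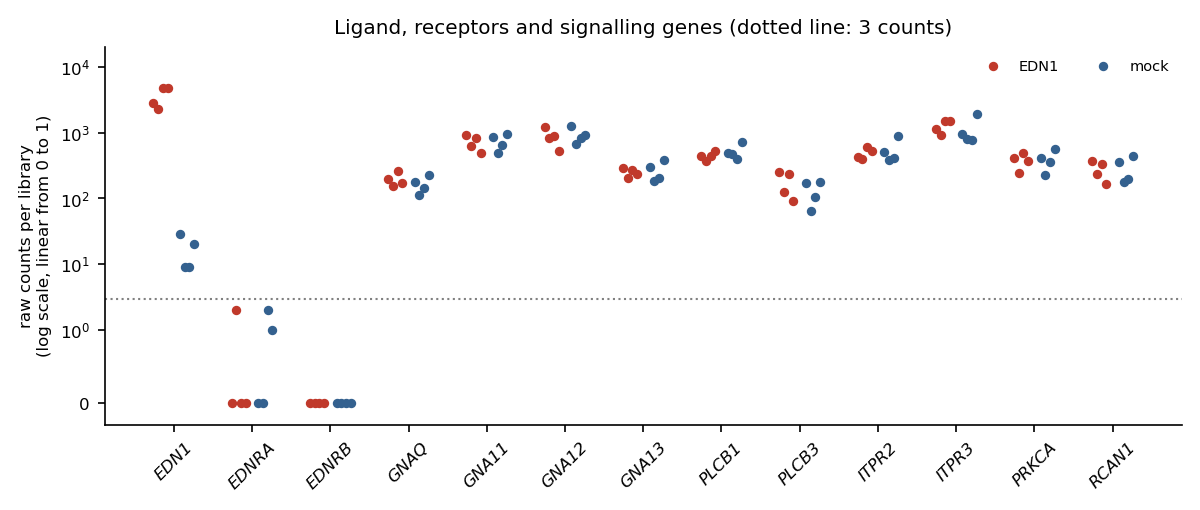
Raw counts per library (log scale, linear between 0 and 1) of the ligand gene EDN1, the receptor genes EDNRA and EDNRB and the 10 signalling genes, with 1 point per library, EDN1 overexpression in red and mock in blue. The receptors lie under the dotted line at 3 counts in all 8 libraries, while the signalling genes lie between 64 and 1905 counts.

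Total counts ranged from 8571252 to 11686180 in EDN1 overexpression and from 8409173 to 14932385 in mock. All 12 hepatocyte markers passed the filter on low counts, and their summed level was 8312 to 10568 CPM in EDN1 overexpression and 7523 to 10698 CPM in mock. APOB (mean of 8 libraries 4503 CPM) and APOA2 (1853 CPM) gave most of it. Of the 12 markers, 5 had positive and 7 negative log2 fold changes, the lowest being -0.79 (SE 0.35) for AFP. In the test used below, 0 of the 12 were called. The 8 smooth muscle and stellate markers, cells in which endothelin receptors are known to be abundant, summed to 22.2 to 27.1 CPM in EDN1 overexpression and 15.7 to 30.3 CPM in mock, with ACTG2 and LRAT at 0 counts. Most of that sum came from MYH11 (mean of 8 libraries 12.3 CPM), RGS5 (5.26 CPM) and PDGFRB (4.46 CPM). The 8 endothelial markers summed to 3.03 to 5.98 CPM in EDN1 overexpression and 4.01 to 7.02 CPM in mock, with KDR and CLDN5 at 0 counts, and most of it came from ROBO4 (mean 4.37 CPM). In bulk RNA, fewer cells of a type and less RNA per cell cannot be told apart. A further difference among libraries is given by no label: CDK4, a cell cycle kinase gene, had 35.8 to 57.2 CPM in EDN1 4, mock 4 and EDN1 3 and 211 to 322 CPM in the other 5. Those 3 libraries are called the second library set here and the other 5 the first. The sets were found from these counts and were not the planned split. The planned split, by the first component of the residuals, puts mock 2 with these 3 libraries. The first set holds 2 EDN1 and 3 mock libraries, the second 2 EDN1 and 1 mock library.

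The main comparison asked whether EDN1 overexpression changed the expression of these genes. None of the 10 passed the quasi-likelihood test of edgeR (Benjamini-Hochberg adjustment) over the 12577 genes tested, and 0 passed by DESeq2 or limma voom. The number of the 10 with an unadjusted p under 0.05 was 0 in this edgeR fit, 0 by limma voom, 1 by DESeq2 and at most 2 under any alternative (with the replicate block). Over all genes 1 was called, EDN1 itself, which is 0.00795% of those tested, and 2.85% had an unadjusted p under 0.05. The EDN1 and mock libraries overlapped for each of the 10 genes, where 2.04% of all genes did not overlap. The median log2 fold change of the 10 was 0.04, beside 0.00099 over all genes tested, and 7 of the 10 were positive, beside 50.3% of all genes. For 9 of the 10, all but PLCB3, the 95% interval kept below a 2-fold change both ways, as it did for 79.4% of all genes.

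**Figure D2:**
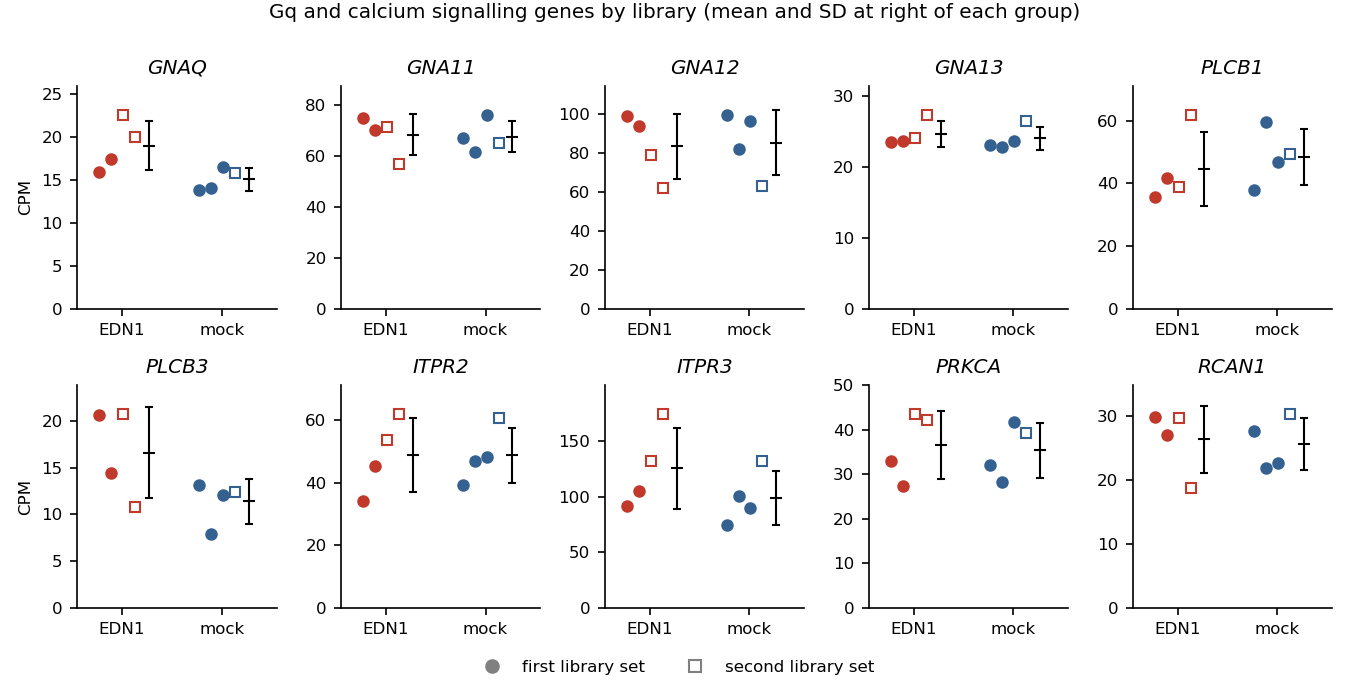
CPM of each of the 10 genes by library, EDN1 overexpression (red) left of mock (blue), with the mean and SD of 4 libraries at the right of each group. Filled circles are the first library set and open squares the second. The groups overlap in every panel, and ITPR3, ITPR2 and GNA13 are higher and GNA12 lower in the second set than in the first.

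Of the Gq alpha subunit genes, GNAQ had 15.9, 17.5, 22.5 and 20.0 CPM in EDN1 1 to EDN1 4, against 13.8, 14.1, 16.5 and 15.8 CPM in mock 1 to mock 4. EDN1 2, 3 and 4 lay above all mock libraries, while EDN1 1 lay below mock 3. The mean was 19.0 ± 2.90 CPM in EDN1 overexpression and 15.0 ± 1.30 CPM in mock (SD, n = 4 each). Its log2 fold change was 0.34 (SE 0.17, 95% interval -0.04 to 0.71), with an unadjusted p of 0.0717 and, by edgeR, an adjusted p of 1.00. Within the first library set it was 0.18 (SE 0.20) and within the second 0.42 (SE 0.44), where the lone mock library is assumed to vary like the others. GNA11, the closest relative of GNAQ and able to act in its place, had 74.8, 70.3, 71.5 and 56.8 CPM in EDN1 1 to EDN1 4. In mock 1 to mock 4 it had 67.0, 61.6, 76.0 and 65.2 CPM. The groups overlapped, and EDN1 4 was the lowest of the 8. The fold change of GNA11 was 1.01 (95% interval 0.816 to 1.26).

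The alpha subunit genes of the related family also overlapped between the groups. GNA12 had 98.8, 93.6, 79.0 and 61.7 CPM in EDN1 1 to EDN1 4, against 99.3, 81.8, 96.2 and 62.7 CPM in mock 1 to mock 4. Its 3 lowest values were those of the second library set, EDN1 4, mock 4 and EDN1 3. The log2 fold change of GNA12 was -0.03 (SE 0.20), and it was 0.10 (SE 0.12) with the library set as a term. GNA13 had the smallest spread of the 10 genes, with 23.4, 23.6, 24.0 and 27.3 CPM in EDN1 1 to EDN1 4, against 23.1, 22.7, 23.6 and 26.4 CPM in mock 1 to mock 4. The SD was 7.34% of the mean in EDN1 overexpression and 6.94% in mock, where the largest of the 10 were 29.5% for PLCB3 in EDN1 overexpression and 24.6% for ITPR3 in mock. The fold change of GNA13 was 1.02 (95% interval 0.828 to 1.27).

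Phospholipase C beta is the enzyme that Gq alpha subunits switch on directly. PLCB3 had 20.6, 14.4, 20.7 and 10.7 CPM in EDN1 1 to EDN1 4, against 13.2, 7.91, 12.1 and 12.4 CPM in mock 1 to mock 4. EDN1 1, 2 and 3 lay above every mock library, and EDN1 4 lay below 3 of them. The mean was 16.6 ± 4.89 CPM in EDN1 overexpression and 11.4 ± 2.36 CPM in mock (SD, n = 4 each). PLCB3 had the largest difference of the 10 genes, 0.54 on the log2 scale (SE 0.25, 95% interval -0.01 to 1.10), and the smallest unadjusted p, 0.0542 (edgeR, adjusted p 1.00). Without EDN1 4 the value was 0.70, and without mock 2 it was 0.41. The first library set alone gave 0.66 (SE 0.28) and the second alone 0.34 (SE 0.48). PLCB1 had 35.5, 41.9, 38.7 and 61.8 CPM in EDN1 1 to EDN1 4, against 37.8, 59.4, 46.8 and 49.5 CPM in mock 1 to mock 4. EDN1 4 was the highest of the 8 libraries for PLCB1, and the other EDN1 libraries lay within or below the mock range. Its log2 fold change was -0.12 (SE 0.21), against -0.32 when EDN1 4 and -0.01 when mock 2 was left out. The other beta isoforms were below the filter, with at most 18 counts of PLCB2 and 5 counts of PLCB4 in any library.

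The IP3 receptors are the channels through which stored calcium leaves the endoplasmic reticulum. ITPR3 had 91.2, 105, 132 and 174 CPM in EDN1 1 to EDN1 4, against 74.1, 100.4, 89.8 and 132 CPM in mock 1 to mock 4. The 3 highest values were EDN1 4, EDN1 3 and mock 4, all of the second library set. The mean was 125 ± 36.5 CPM in EDN1 overexpression and 99.0 ± 24.3 CPM in mock (SD, n = 4 each). The log2 fold change of ITPR3 was 0.34 (SE 0.23; edgeR, adjusted p 1.00). Leaving out EDN1 4 gave 0.14 and leaving out mock 4 gave 0.51. It was 0.15 (SE 0.18) and 0.21 (SE 0.40) within the first and the second library set. ITPR2 had 34.2, 45.3, 53.7 and 61.8 CPM in EDN1 1 to EDN1 4, against 39.3, 46.8, 48.2 and 60.5 CPM in mock 1 to mock 4. The groups overlapped, with EDN1 1 lowest and EDN1 4 highest. The means were 48.7 CPM in both groups, and the fold change was 0.999 (95% interval 0.729 to 1.37). The remaining IP3 receptor gene, ITPR1, had 6.02, 6.92, 4.65 and 11.7 CPM in EDN1 1 to EDN1 4, against 7.96, 12.0, 10.3 and 10.7 CPM in mock 1 to mock 4. EDN1 1, 2 and 3 lay below every mock library and EDN1 4 within their range, with a log2 fold change of -0.49 (SE 0.28). ITPR1 was named after its values were seen.

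Shares within a family need no scaling between libraries, so 5 such shares of raw counts were compared by exact two-sided permutation tests over the libraries. They were chosen after the counts were seen, so their p-values only describe how the libraries separate and give no support beyond that. ITPR3 made up 69.4%, 66.7%, 69.3% and 70.3% of the counts of the 3 IP3 receptor genes in EDN1 1 to EDN1 4, against 61.0%, 63.1%, 60.6% and 64.9% in mock 1 to mock 4. Every EDN1 library lay above every mock library, and how often shares in other gene families separate in this way was not examined. The mean share was 6.55 percentage points higher in EDN1 overexpression, with 68.9 ± 1.54% against 62.4 ± 2.00% in mock (SD, n = 4 each, exact permutation p = 0.0286, the smallest that 4 against 4 can give). Adjusted over the 5 shares the p was 0.0714. Since 0.0286 is the smallest p, an adjusted p under 0.05 would have needed at least 3 of the 5 shares at that limit, so the adjusted value says little about this share either way. The 2 ITPR3 shares also rest largely on the same counts. The first library set alone gave 6.53 points and the second alone 4.90. Without ITPR1, the share of ITPR3 among ITPR2 and ITPR3 was 71.9 ± 1.76% in EDN1 overexpression and 66.8 ± 1.84% in mock (SD, n = 4 each), also without overlap (exact permutation p = 0.0286, adjusted 0.0714).

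**Figure D3:**
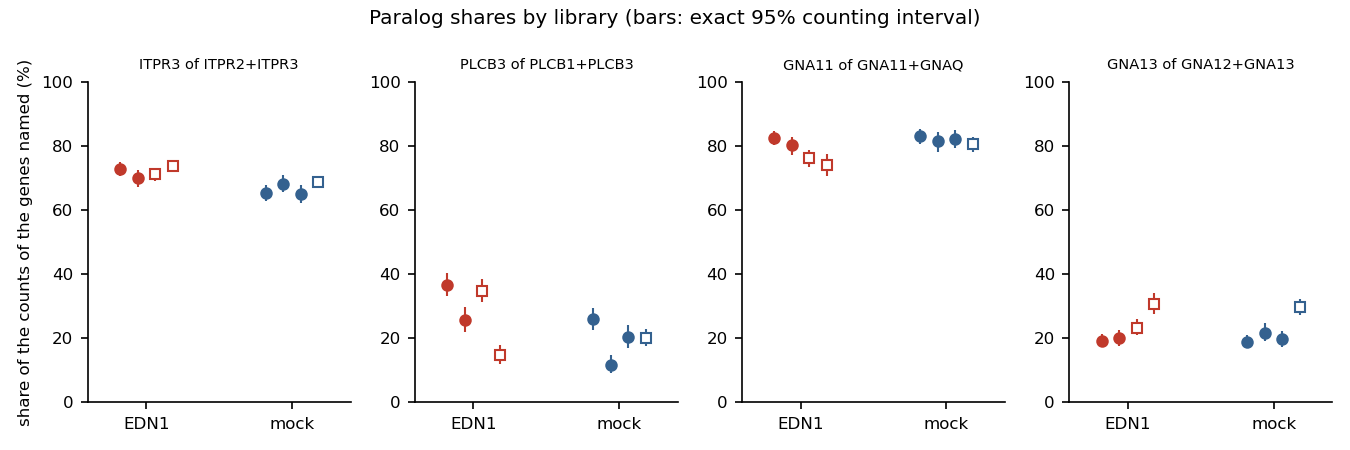
Share of 1 gene in the counts of the genes named above each panel, by library, EDN1 overexpression (red) left of mock (blue), with exact (Clopper-Pearson) 95% counting intervals. Circles are the first and squares the second library set. Only the ITPR3 panel has no overlap between the groups, and the GNA13 panel is highest in EDN1 4 and mock 4.

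The other shares overlapped between the groups. PLCB3 made up 36.7%, 25.6%, 34.9% and 14.8% of the PLCB1 and PLCB3 counts in EDN1 1 to EDN1 4, against 25.8%, 11.7%, 20.5% and 20.0% in mock 1 to mock 4 (exact permutation p = 0.229). GNA11 made up 78.1 ± 3.83% of the GNA11 and GNAQ counts in EDN1 overexpression and 81.7 ± 1.06% in mock (SD, n = 4 each, exact permutation p = 0.143), and the difference of -3.61 points became -0.90 in the first library set and -5.46 in the second. GNA13 made up 23.3 ± 5.20% of the GNA12 and GNA13 counts in EDN1 overexpression and 22.5 ± 4.90% in mock (SD, n = 4 each, exact permutation p = 0.714).

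PRKCA encodes protein kinase C alpha, a conventional form that needs both calcium and diacylglycerol. It had 33.1, 27.4, 43.5 and 42.2 CPM in EDN1 1 to EDN1 4, against 32.2, 28.3, 41.8 and 39.2 CPM in mock 1 to mock 4. The groups overlapped, and libraries 3 and 4 of each group were the higher ones. The fold change of PRKCA was 1.03 (95% interval 0.766 to 1.39). On the log2 scale its difference was -0.17 (SE 0.22) within the first library set and 0.12 (SE 0.40) within the second.

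RCAN1, the NFAT target, is the transcriptional readout of the list. It had 29.9, 27.1, 29.7 and 18.8 CPM in EDN1 1 to EDN1 4, against 27.7, 22.0, 22.7 and 30.3 CPM in mock 1 to mock 4. The lowest value was EDN1 4 and the highest mock 4. The mean was 26.4 ± 5.21 CPM in EDN1 overexpression and 25.7 ± 4.01 CPM in mock (SD, n = 4 each). Its fold change was 1.03 (95% interval 0.767 to 1.38) in the fit without the library set, and the interval covers the spread among these libraries only. With the set as a term, the log2 fold change was 0.03 (SE 0.19). On the log2 scale the difference was 0.24 (SE 0.19) within the first library set and -0.33 (SE 0.42) within the second. Counts per gene do not separate the RCAN1 transcripts that start at the NFAT-responsive promoter from the others.

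The 10 genes were also compared between the library sets. The absolute log2 difference between the sets, fitted beside the group, exceeded that between EDN1 overexpression and mock for 7 of the 10, and for 69.6% of all genes. ITPR3 averaged 146 CPM in the second set and 92.0 CPM in the first, a log2 difference of 0.62 (SE 0.15). ITPR2 averaged 58.6 CPM in the second set and 42.8 CPM in the first, a difference of 0.50 (SE 0.14). GNA12 averaged 67.8 CPM in the second set and 93.9 CPM in the first, a difference of -0.50 (SE 0.13). These 3 genes and GNA13 did not overlap between the sets, which is 4 of 10, where 23.2% of all genes tested did not overlap. No test is given, since the sets were found from the same counts. EDN1 itself had 228, 259, 418 and 549 CPM in EDN1 1 to EDN1 4, with EDN1 3 and EDN1 4 in the second set. Its log2 difference between the sets, fitted beside the group, was 0.73 (SE 0.26). The part of the EDN1 level in the set differences was not tested.

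**Figure D4:**
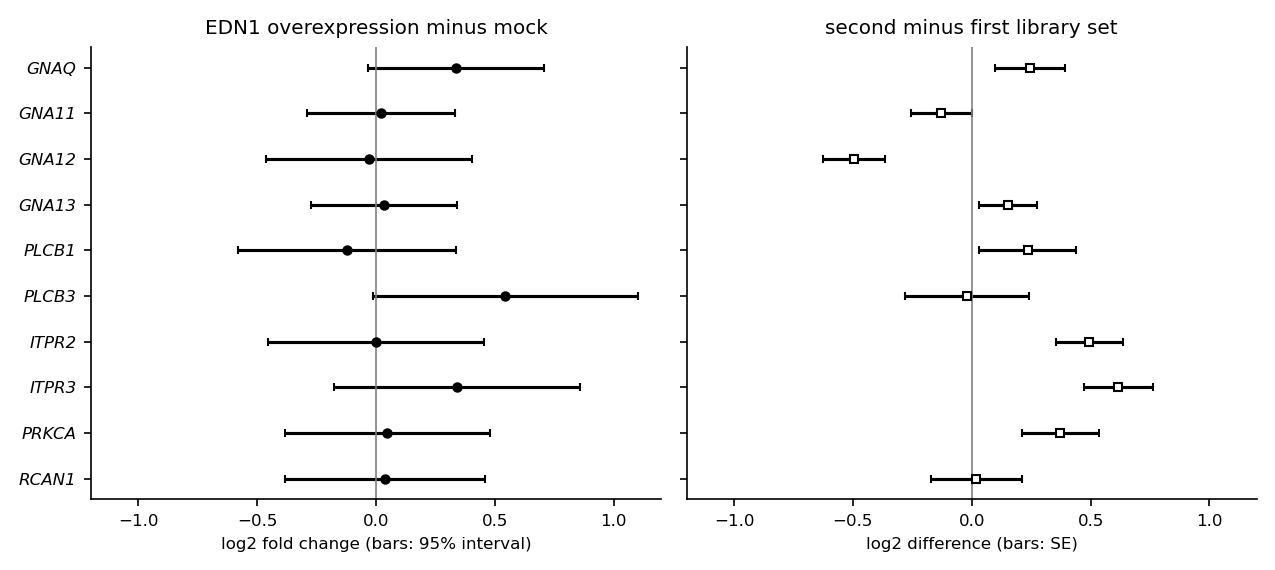
Log2 differences of the 10 genes: EDN1 overexpression minus mock with 95% intervals (left), and second minus first library set with standard errors (right). Each interval on the left includes 0, and on the right ITPR3 (0.62) and ITPR2 (0.50) lie highest and GNA12 (-0.50) lowest.

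Levels between genes were compared as CPM per kilobase of the length the table lists. By its name, the kit in the labels reads tags near the ends of transcripts, but the catalogue number given may belong to another kit. With such tags, division by length may set long genes too low. In 4 equal bins of the tested genes, short to long, the median CPM was 23.9, 21.0, 21.0 and 25.2. CPM thus did not grow in step with the listed length, and the order per kilobase depends on the division. GNA11 (median over 8 libraries 16.6 CPM per kilobase), GNA12 (16.3) and ITPR3 (11.4) led the list, followed by RCAN1 (7.27), PLCB1 (6.15), PRKCA (4.13), ITPR2 (3.78), GNA13 (3.64), GNAQ (2.55) and PLCB3 (2.20). The ranges of neighbours in this order overlapped except for ITPR3 and RCAN1. GNA11 lay above GNAQ by this measure, with 13.7 to 18.3 against 2.18 to 3.55 CPM per kilobase over the 8 libraries. By mean CPM of the 8 libraries, without division by length, the order was different. ITPR3 (112 CPM) then led, before GNA12 (84.1 CPM) and GNA11 (67.9 CPM). ITPR2 (48.7 CPM), PLCB1 and PRKCA came next, all above RCAN1 (26.0 CPM). ITPR3 shares exon sequence with UQCC2 on the opposite strand, and the use of strand in the counting is not stated by any source used here. For UQCC2 the log2 difference was 0.14 (SE 0.15) between the groups and -0.02 between the sets, where ITPR3 had 0.62. GNA11 and ITPR2 overlap non-coding transcripts.

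The remaining parts of the pathway were read from lists of related genes, and 0 of their tested members passed the edgeR test in either direction (smallest adjusted p 1.00 in each list). Chosen from each list were the 2 tested genes with the highest CPM and the 1 further gene with the smallest unadjusted p. The latter were thus picked by their values in these data. Receptors came next after the endothelin receptors. Of 24 other receptors known to couple to Gq, 11 passed the filter on low counts, 6 with positive and 5 with negative fold changes and a median log2 fold change of 0.10. Those with the highest CPM were P2RY11, a nucleotide receptor gene, and F2RL1, a protease-activated receptor gene. P2RY11 had 65.7 ± 8.02 CPM in EDN1 overexpression and 77.2 ± 16.0 CPM in mock (SD, n = 4 each). F2RL1 had 41.8 ± 4.25 CPM in EDN1 overexpression and 48.5 ± 12.8 CPM in mock (SD, n = 4 each). F2R, which encodes the thrombin receptor, had 31.8, 21.9, 37.5 and 34.8 CPM in EDN1 1 to EDN1 4, against 25.5, 23.6, 17.2 and 26.0 CPM in mock 1 to mock 4. On the log2 scale F2R differed by 0.45 (SE 0.20). AGTR1, the angiotensin II receptor gene, had 5, 14, 1 and 14 counts in EDN1 1 to EDN1 4, against 22, 15, 19 and 27 counts in mock 1 to mock 4. Its CPM did not overlap between the groups, where 2.04% of all genes tested did not overlap. The log2 fold change of AGTR1 was -1.11 (SE 0.59), or -0.70 without EDN1 3, and the gene was named after its values were seen.

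Among 13 tested genes of other G protein subunits, 7 were positive, with a median log2 fold change of 0.03. On the log2 scale the beta subunit gene GNB1 differed by -0.04 (SE 0.14) and the Gs alpha gene GNAS by -0.01 (SE 0.23). GNAI1, a Gi alpha subunit gene, had 6.34, 5.78, 7.37 and 13.5 CPM in EDN1 1 to EDN1 4, against 3.04, 5.93, 3.48 and 4.08 CPM in mock 1 to mock 4. On the log2 scale GNAI1 differed by 1.00 (SE 0.33; edgeR, adjusted p 1.00), and by 0.67 when EDN1 4 was left out. GNA14 and GNA15, the other alpha subunit genes of the Gq family, had at most 3 and 4 counts.

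Genes that regulate receptor and G protein signalling (RGS proteins, receptor kinases, arrestins, RIC8A and RIC8B) were positive in 11 of 16 tested members (median log2 fold change 0.15). RGS10 had 28.1, 25.1, 30.2 and 30.4 CPM in EDN1 1 to EDN1 4, against 18.3, 19.5, 18.4 and 25.9 CPM in mock 1 to mock 4. EDN1 2 lay below mock 4, and the log2 fold change was 0.47 (SE 0.16). The log2 fold change was -0.15 (SE 0.17) for RGS14 and -0.49 (SE 0.36) for the arrestin gene ARRB2. ARRB2 averaged 50.1 CPM in the second library set and 107 CPM in the first, and its value was -0.25 with the set as a term and -0.20 without mock 2. RGS5, which is also on the smooth muscle list, had 8.54, 5.22, 11.5 and 2.77 CPM in EDN1 1 to EDN1 4, against 4.92, 2.47, 4.29 and 2.42 CPM in mock 1 to mock 4. It was named after its values were seen, since its unadjusted p was 0.0384, and its part in the sum of that marker list was not tested.

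The lipid and IP3 branch was close to even. Other phospholipases C were positive in 3 of 5 tested members, with log2 fold changes of -0.03 (SE 0.17) for PLCD3, 0.12 (SE 0.24) for PLCG1 and 0.24 (SE 0.48) for PLCE1. Enzymes that make PIP2 or remove IP3 were positive in 10 of 17, with a median log2 fold change of 0.03. The log2 fold change was 0.33 (SE 0.14) for PI4KB, a phosphatidylinositol kinase gene, 0.17 (SE 0.13) for the IP3 phosphatase gene INPP5A and -0.03 (SE 0.13) for PIP4K2C.

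Genes of calcium stores, calcium entry, pumps and calmodulin were positive in 12 of 21 tested members (median log2 fold change 0.01). The calmodulin gene CALM3 had 698, 578, 1142 and 895 CPM in EDN1 1 to EDN1 4, against 575, 525, 506 and 842 CPM in mock 1 to mock 4. Its log2 fold change was 0.44 (SE 0.24), and it averaged 960 CPM in the second library set and 576 CPM in the first. CALM2, another calmodulin gene, differed on the log2 scale by -0.13 (SE 0.17) and ORAI2, which encodes a store-operated channel subunit, by 0.46 (SE 0.24). Genes of other protein kinases C and D, diacylglycerol kinases and linked targets were positive in 10 of 15, with a median log2 fold change of 0.14. MARCKS, a classical protein kinase C substrate gene, had 86.7, 92.7, 101 and 115 CPM in EDN1 1 to EDN1 4, against 80.2, 68.6, 62.2 and 80.2 CPM in mock 1 to mock 4. Every EDN1 library lay above every mock library, where 2.04% of all genes tested did not overlap between the groups. Among the lists of related genes, this list and that of the other Gq receptors each held 1 such gene and the others 0. The log2 fold change of MARCKS was 0.44 (SE 0.15), with an unadjusted p of 0.0136 (edgeR, adjusted p 1.00). The first library set alone gave 0.35 (SE 0.17) and the second alone 0.42 (SE 0.39). PRKCZ differed on the log2 scale by -0.08 (SE 0.15) and DGKG by 0.31 (SE 0.28).

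**Figure D5:**
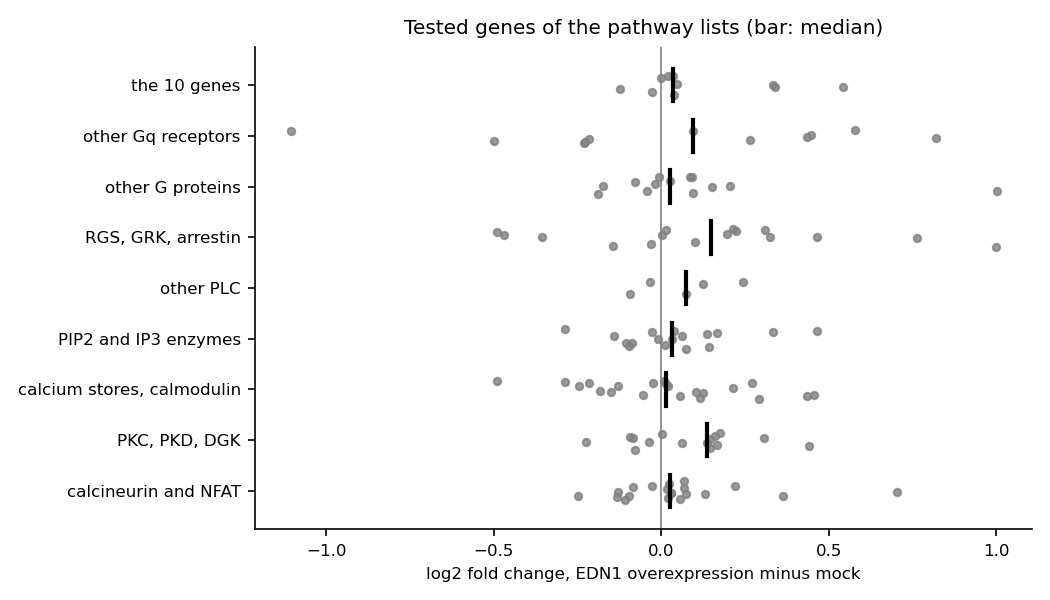
Log2 fold changes (EDN1 overexpression minus mock) of the tested genes of the 10 described here and of 8 lists of related pathway genes, with 1 point per gene and a bar at each median. The medians lie between 0.01 and 0.15, and no gene shown passed the test over all genes.

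The calcineurin and NFAT branch lies furthest downstream. Calcineurin, NFAT and calmodulin kinase genes were positive in 13 of 20, with a median log2 fold change of 0.03. The calcineurin regulatory subunit gene PPP3R1 differed on the log2 scale by -0.11 (SE 0.14), NFATC3 by -0.03 (SE 0.14) and NFATC2 by 0.36 (SE 0.21). At the top of the pathway lie the converting enzyme genes ECE1 and ECE2, whose products release the active peptide. ECE1 had 191 ± 58.5 CPM in EDN1 overexpression and 142 ± 40.8 CPM in mock (SD, n = 4 each). ECE2 had 7.50 ± 2.26 CPM in EDN1 overexpression and 9.53 ± 2.60 CPM in mock (SD, n = 4 each). Neither passed the test. ECE1 averaged 227 CPM in the second library set and 130 CPM in the first, and ECE2 6.02 and 10.0 CPM. With the set as a term, the log2 fold change went from 0.43 to 0.23 for ECE1 and from -0.34 to -0.18 for ECE2.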

How the data were processed

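The authors deposited 1 table of raw read counts per gene symbol with a gene length, from libraries made with a Lexogen Quant-Seq kit per the labels' protocols. The submitters' processing notes list Bowtie2, edgeR and hg19. No source used here states the counting tool, filters or use of strand. The deposited length column (other unit) served only for CPM per kilobase. In 4 equal bins of the tested genes, short to long, the median CPM was 23.9, 21.0, 21.0 and 25.2.

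Rows of 1 symbol were summed (25737 rows, 24462 genes), except MARCH1 and MARCH2. Genes were filtered with filterByExpr (minimum count 10), scaled by TMM (factors 0.950 to 1.05) and tested with edgeR 4.0.16 (R 4.3.3), quasi-likelihood, Benjamini-Hochberg over 12577 genes, threshold 0.05. The script was tested on simulated data. Standard errors are the fold change over the square root of F. CPM values use TMM-scaled sizes, while marker sums and the 3 count limit use library totals. Library pairs differed by more than sampling noise (chi-square per degree of freedom 6.16 to 86.5). DESeq2 1.42.0, limma 3.58.1, other scalings and filters, the replicate block and left-out libraries were alternatives. The members and lists were chosen with earlier results of these data known. Named pathway genes were, per list, the 2 with the highest CPM and the 1 further gene with the smallest p. Overlaps came from GENCODE 29, by name only. One list of pathway genes is not reported here.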

Additional observations from a re-analysis of the deposited data

Results flagged for a closer look

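In 5 of the 80 sets of 4 values checked, 1 library stood far from the other 3 of its group by Dixon's ratio, the gap to the nearest value over the whole range (above its 95% critical value), and chance flags about 1 in 20. GNA13 in EDN1 4 had a ratio of 0.842, with 27.3 CPM against 23.4 to 24.0 CPM in the other EDN1 libraries. GNAS in EDN1 4 had a ratio of 0.943 and PLCE1 in EDN1 4 one of 0.870, where PLCE1 had at most 22 counts in any library. RGS10 in mock 4 had a ratio of 0.845, with 25.9 CPM against 18.3 to 19.5 CPM in the other mock libraries. NFATC2 in mock 4 had a ratio of 0.887, with 20.1 CPM against 12.7 to 13.6 CPM. EDN1 4 and mock 4 both belong to the second library set, and the part of the set in these values was not tested.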

How the results depend on the processing

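The number of genes called was 1 under every alternative except DESeq2, which called 3 (EDN1, LGI1 and TMSB4X), and 0 of the 10 genes passed under any. Same-numbered libraries did not all deviate together (correlations 0.477, 0.151, -0.149 and 0.528), not every library correlated best with its own number, and with the replicate block 1 gene and 0 of the 10 were called. Leaving out each library gave 1 to 1 genes called and 0 to 0 of the 10. Log2 fold changes that turned sign lay between -0.12 (PLCB1) and 0.24 (PLCE1) in the main fit, and the cause was not tested. Within the second library set they were -0.034 for GNA11, 0.15 for GNA12, -0.053 for GNA13, 0.011 for PLCB1, -0.33 for RCAN1 and 0.17 for PLCD3, and the GNA13 share differed by -2.63 points. Within the first set they were 0.057 for GNA12, -0.17 for PRKCA and 0.0024 for PIP4K2C, and the GNA13 share differed by -0.47 points. With the set as a term they were 0.10 for GNA12, -0.0020 for GNA13, -0.062 for PRKCA and 0.018 for PLCD3. With library totals they were 0.0118 for GNA12, 0.029 for ITPR2, 0.020 for GNAS, 0.011 for PIP4K2C and 0.00113 for NFATC3, and upper-quartile scaling gave 0.0049 for ITPR2. Splitting the libraries by the sign of the first residual component gave, on the positive side, 0.10 for ITPR2, -0.12 for RCAN1, -0.19 for PLCG1, 0.063 for PLCD3 and 0.0786 for NFATC3. The negative side gave -0.28 for PRKCA, 0.10 for GNAS, -0.66 for PLCE1 and 0.092 for PIP4K2C, and the side as a term gave 0.00817 for GNAS. Over the left-out libraries the values ran between -0.026 and 0.10 for GNA11, -0.15 and 0.091 for GNA12, -0.018 and 0.086 for GNA13, -0.14 and 0.14 for ITPR2, -0.048 and 0.16 for PRKCA and -0.030 and 0.17 for RCAN1. They ran between -0.24 and 0.093 for GNAS, -0.11 and 0.035 for GNB1, -0.032 and 0.26 for PLCG1, -0.11 and 0.14 for PLCD3, -0.18 and 0.39 for PLCE1, -0.085 and 0.028 for PIP4K2C and -0.10 and 0.030 for NFATC3. The GNA13 share ran between -1.62 and 3.20 points. PLCE1 was below the filter in the first set, on the positive side and without mock 1, mock 4, EDN1 1 or EDN1 3, so its range rests on 4 of the 8 left-out libraries. The ARRB2 log2 fold change was -0.03 on the negative side and -1.12 on the positive side. With 4 libraries a group, the 95% intervals of the 10 genes leave room for changes of up to 2.14-fold (PLCB3).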
